A study of Homo sapiens with 12 samples.

Results

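WERI-Rb-1, an established human line of retinoblastoma (the childhood tumour of the retina), was exposed to THZ1 and compared with its solvent control across all genes. The members are the libraries whose labels name this line, which are 6 of the 12 libraries of the series. Of them, 3 came from cultures kept for 12 h in 50 nM THZ1 and 3 from cultures kept for 12 h in 0.1% DMSO. The labels give the cell type as retinoblastoma and the genotype as WT in both groups, and both were grown in the same serum-containing medium. The other 6 libraries are the same design in Y79, a second retinoblastoma line. The series was made to see what THZ1 does to transcription in retinoblastoma cells.

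THZ1 binds covalently to CDK7, the kinase of the general transcription factor TFIIH, and at higher exposure also to its relatives CDK12 and CDK13. CDK7 phosphorylates the tail of RNA polymerase II as genes are started, and it activates the kinases of the cell cycle. When transcription is held back, a transcript with a short life leaves the cell faster than one with a long life, so the RNA left after some hours reflects both how much is made and how fast it is lost. Counts of total RNA per gene, as here, do not tell the making and the losing apart.

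Each library held 31189395 to 36115270 counts, and 15559 to 15817 Ensembl genes had at least 1 count. Levels below are CPM (counts relative to library size) after TMM scaling, a trimmed mean of ratios between libraries that assumes that most genes do not change. They are not divided by transcript length, so they compare libraries for 1 gene and not genes with each other. Of 19974 Ensembl genes, 14865 passed the filter on low counts and were tested with edgeR's quasi-likelihood test. A gene is said to have risen or fallen where its Benjamini-Hochberg adjusted p was under 0.05. The labels describe the 3 libraries of a group as biological repeats without naming their source, so p-values measure the spread between these cultures.

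Of the 13 tested genes on a list of 15 for retinoblastoma and photoreceptor identity, the summed level was 3092 to 3192 CPM in the DMSO libraries and 2413 to 2457 CPM in the THZ1 libraries. The lower sum does not stand for every member: 7 rose and 6 fell, where 27.7% of all genes rose and 37.2% fell. Their median log2 fold change was 0.44 with TMM scaling and -0.007 when libraries were scaled by their total only. Of the 15, 2 were under 1 CPM and 1 was at 0 in all 6 libraries, so most of the listed markers of the labelled cell type were present. Of 26 markers of glia, pigment epithelium, stroma and blood, 17 were under 1 CPM, and their sum was 234.5 to 242.7 CPM in DMSO and 268.9 to 278.8 CPM after THZ1. Of the 18 of these that were tested, 4 were higher after THZ1 (22.2%, against 27.7% of all genes), CD68, HBA1 and COL1A1 among them. Only 1 fell, VIM, the intermediate filament of glia and many cultured cells, and 13 were not called. Whether other cells had any part in the results below was not tested.

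The background for every count that follows is broad. edgeR called 64.8% of the tested genes, 27.7% higher and 37.2% lower, and 11.3% were at least 2-fold higher and 16.7% at least 2-fold lower. The CPM of both groups did not overlap for 75.9% of the genes, so a lack of overlap alone sets few genes apart. The median log2 fold change of all genes was -0.11 with TMM scaling, -0.56 when libraries were scaled by their total only and -2.01 when they were scaled by the 13 mitochondrial mRNAs. With that last scaling 0.747% of genes were called higher and 89.7% lower. A rise on the TMM scale that is smaller than the gap between those medians has the opposite sign on the mitochondrial one. Directions below are relative to the TMM baseline unless another is named, and every list with a negative median there had a negative median with the other scalings too.

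CDK7 itself was lower in treated cells. Its level was 12.4, 10.3 and 10.6 CPM in the DMSO libraries and 2.76, 2.98 and 3.24 CPM in the THZ1 libraries, a log2 fold change of -1.89 ± 0.126 (SE). MYCN, the oncogene named in the title of the series, changed less, by -0.39 ± 0.0658 (edgeR adjusted p 1.33e-04).

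The 12 ranked rises held early-response and stress regulators and genes of other kinds. Ranking was among genes of at least moderate level (a mean of about 8 CPM) whose groups did not overlap, with histone, mitochondrial and ribosomal protein genes and some well-known genes set aside. Of the genes set aside, FOSB, FOS, ARC and EGR1, all early-response genes, would have ranked among the 12 rises at 4.97, 4.29, 3.54 and 3.0 on the log2 scale. Likewise ZNF672, SLC16A6, DDIT3 and MVK would have ranked among the falls at -4.08, -3.7, -3.24 and -2.89. The ranked rises ran from ID2 at 3.61 to C12orf75 at 2.19 on the log2 scale. ID2 (GRCh38 chr2:8678845-8684453, plus strand) encodes an inhibitor of bHLH differentiation factors. It was at 12.7, 13.3 and 13.96 CPM in DMSO and at 157, 164 and 167 CPM after THZ1 (log2 fold change 3.61 ± 0.0916 (SE), edgeR adjusted p 1.00e-11). All 3 treated cultures lay far above all 3 controls, with little spread inside either group. IER5L, a single-exon early-response gene on chromosome 9, went from 16.5, 15.5 and 13.2 CPM to 150.3, 169.8 and 169.6 CPM, and its relative IER2 from 53.2, 59.1 and 53.1 CPM to 381, 400.4 and 415 CPM. Both early-response genes were thus high in every treated culture. GADD45B, a stress sensor that acts on the p38 and JNK kinase path, was at 3.64, 3.24 and 3.91 CPM in DMSO and at 38.2, 37.2 and 37.8 CPM after THZ1, a log2 fold change of 3.39. SGK1, a serum- and glucocorticoid-induced kinase that shares substrates with AKT, was at 12.7, 12.6 and 12 CPM in DMSO and at 89.7, 88.8 and 90.6 CPM after THZ1.

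Further rises of this rank came from unrelated functions. RASD1, a small GTPase induced by dexamethasone, rose by 2.79 and RHOF, a GTPase that makes filopodia, by 2.58. JUNB, a subunit of the AP-1 factor, rose by 2.51, from 45.1, 46.2 and 51.5 CPM to 269.9, 276 and 269 CPM. EMC10, a subunit of the complex that inserts proteins into the endoplasmic reticulum membrane, rose by 2.3, and MZT2B, a small component of the gamma-tubulin ring, by 2.27. PCSK1N, a peptide inhibitor of a prohormone protease, rose by 2.25 with the weakest support of the 12 (edgeR adjusted p 0.00474). All 12 stayed above 0 with mitochondrial scaling, from 0.3 for C12orf75 to 1.71 for ID2, though MZT2B, PCSK1N and C12orf75 were then no longer called. RHOF shares exon bases with TMEM120B, JUNB with HOOK2, EMC10 with FAM71E1 and MZT2B with SMPD4, each on the opposite strand, and ID2, IER5L, IER2 and C12orf75 share some with non-coding genes. The library kit named in the labels does not keep strand, so reads of such partners cannot be told apart.

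The 12 ranked falls covered mitochondrial, RNA-processing and other functions. MRPS18A (GRCh38 chr6:43671303-43687791, minus strand), a protein of the mitochondrial ribosome, was at 40.3, 44.04 and 40.2 CPM in DMSO and at 5.14, 4.54 and 5.59 CPM after THZ1, a log2 fold change of -3.03 ± 0.107 (SE). TACO1, which activates the translation of mitochondrial COX1, was at 22.1, 22.9 and 22.8 CPM in DMSO and at 2.73, 2.34 and 3.38 CPM after THZ1 (log2 fold change -3.0). The controls held several times the level of the treated cultures for both genes of mitochondrial translation. NCOA5, a nuclear receptor coactivator, fell by 2.97 on the log2 scale, from 53.9, 53.6 and 52.1 CPM to 6.997, 6.78 and 6.52 CPM. CSTF1, a subunit of the cleavage stimulation factor that helps to set the 3′ ends of mRNA, went from 26.8, 30.02 and 26.3 CPM to 2.87, 4.099 and 3.87 CPM. PRPF4, a protein of the U4/U6 spliceosomal particle, went from 92.7, 97.9 and 97.9 CPM to 14.6, 12.8 and 13.01 CPM.

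TRIM26, a ubiquitin ligase of the tripartite motif family, fell by 2.88 on the log2 scale. Its level was 108, 114 and 113 CPM in DMSO and 14.03, 17.5 and 14.04 CPM after THZ1. The remaining falls were ZNF473, a zinc finger protein of histone pre-mRNA processing (-2.94), RBM23, an RNA-binding splicing protein (-2.91), and ADORA1, the A1 adenosine receptor (-2.81). SHROOM3, which constricts the apical side of epithelial cells, fell (-2.8), PUDP, a pseudouridine phosphatase, at -2.79 and CTTNBP2NL, a cortactin-binding protein, at -2.76. MRPS18A shares exon bases with RSPH9, ZNF473 with VRK3 and PRPF4 with CDC26, on opposite strands.

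**Figure D1:**
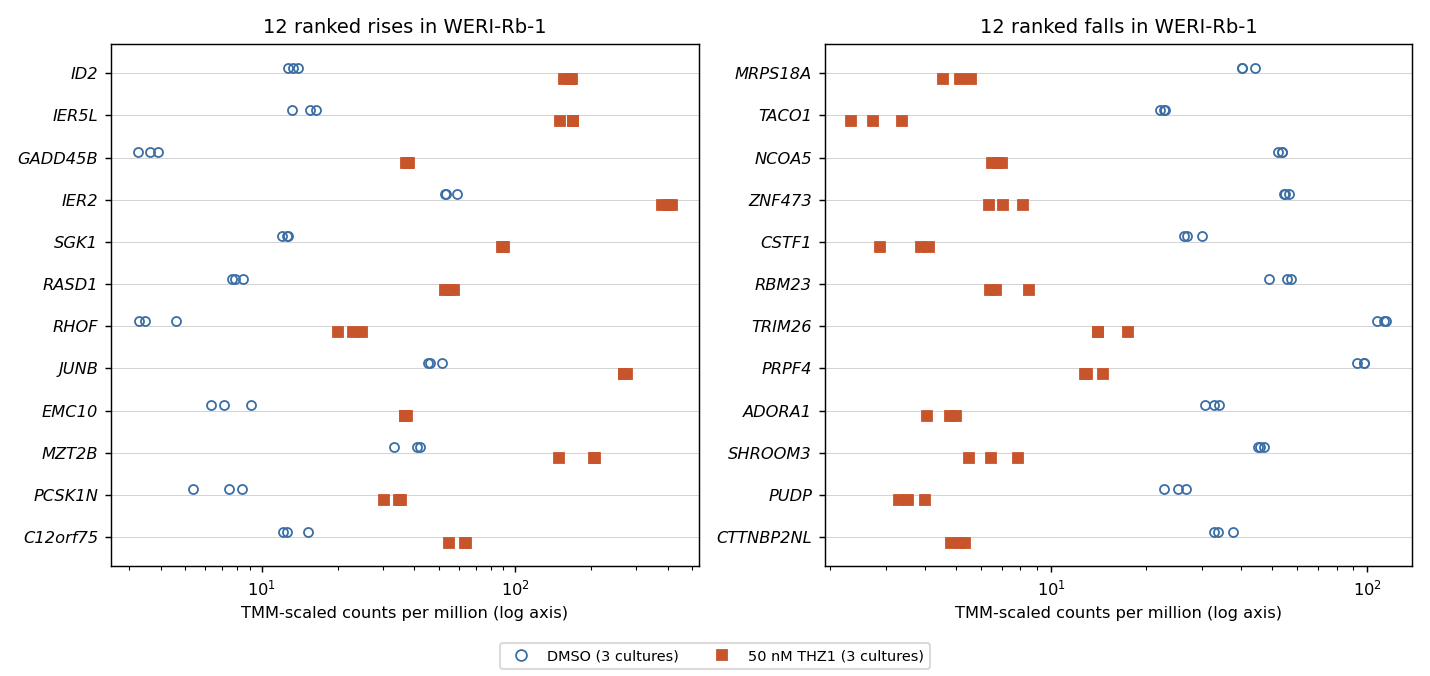
TMM-scaled CPM (log axis) of the 12 ranked rises and 12 ranked falls, with 1 open circle for each DMSO culture and 1 filled square for each THZ1 culture. Genes were ranked among those whose groups did not overlap, and the log2 fold change goes from 3.61 for ID2 to -3.03 for MRPS18A.

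Of the 24 genes, 8 changed to a different degree in Y79, tested as the difference between the lines' changes (edgeR, adjusted over all features, 22.0% of all genes called). The count was 5 when DMSO replicate 2, DMSO replicate 3 or THZ1 replicate 3 was left out. RASD1 showed the widest gap: its log2 fold change was 2.79 in WERI-Rb-1 and 1.22 in Y79. PRPF4 fell further in Y79, at -3.96 against -2.83. Across the genome, 8097 genes were called in both lines and 7838 of them (96.8%) had the same sign, while 259 had opposite signs. As a description across 14865 genes, which are not independent replicates, Pearson's r between the changes was 0.680 and Spearman's rank coefficient was 0.779.

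The upstream sequence of 3 ranked genes is shown because the first pair holds a TATA word close to the start and the third, a gene that fell, does not. Capitals mark TATAAA, and each line is the 100 bases before the RefSeq start on GRCh38.p14, read 5′ to 3′ along the gene's own strand. The first line is chr19:2476027-2476126 (plus), the second chr19:12791386-12791485 (plus) and the third chr6:30213407-30213506 (minus).
GADD45B: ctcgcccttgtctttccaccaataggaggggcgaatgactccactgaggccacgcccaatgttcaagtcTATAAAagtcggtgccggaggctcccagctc
JUNB: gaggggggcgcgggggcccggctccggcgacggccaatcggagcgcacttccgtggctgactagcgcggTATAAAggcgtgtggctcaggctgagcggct
TRIM26: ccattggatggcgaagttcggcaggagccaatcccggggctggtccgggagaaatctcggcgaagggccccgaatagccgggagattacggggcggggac
In GADD45B and JUNB the word begins 31 bases before the start, the usual place of a TATA box.

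Counted over the window from 250 bases before to 50 bases after the start, TATAAA on either strand was in 5.74% of the 11471 tested genes whose promoter was in the RefSeq table. It was in 7.47% of genes at least 2-fold higher, in 3.9% of those at least 2-fold lower and in 7.65% of those not called. Among the ranked genes with a promoter, GADD45B, SGK1 and JUNB held it and none of the 11 falls did. In SGK1 the word lies on the opposite strand, 96 bases before the start. A match is a run of letters and not a known binding site.

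The largest gains and losses in CPM came from other genes than the largest ratios. HSP90AA1, the inducible cytosolic HSP90 chaperone, was at 2624, 2587 and 2503 CPM in DMSO and at 5899, 6046 and 6194 CPM after THZ1. STMN1, a protein that takes tubulin dimers away from microtubules, went from 1369, 1360.0 and 1321 CPM to 3995, 4301 and 4457 CPM, a log2 fold change of 1.66. PKM, the last enzyme of glycolysis, rose by 1.09, HSP90AB1 by 1.07, and the mRNA-packaging proteins HNRNPA1 and HNRNPA2B1 by 1.5 and 1.48. All 6 of these gains turned negative with mitochondrial scaling, from -0.83 for HSP90AB1 to -0.24 for STMN1. Among losses HSPA8, OTX2 and THRB, and among gains EEF1A1, belong to the genes set aside and would have ranked first. The next 6 losses included proteins of neurons, of the dividing nucleus and of photoreceptors. MAP1B, a neuronal microtubule protein, went from 1171, 1038 and 1078 CPM to 703, 674 and 638 CPM. MKI67, the proliferation antigen Ki-67, went from 848, 798 and 778 CPM to 395, 404 and 380.1 CPM, and RBP3, the retinoid carrier made by photoreceptors, from 509, 522 and 479 CPM to 271, 229.6 and 232 CPM. MCC fell (-0.89), PRRC2A at -0.88 and HIPK2, a nuclear protein kinase, at -1.41 on the log2 scale. RBP3 fell further in Y79 (log2 fold change -3.24, difference -2.2, edgeR adjusted p 2.12e-06).

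A few genes were counted in 1 group only. After THZ1 alone, 6 genes had at least 10 counts in each library, and RNF151, a testis ring-finger protein, led them with 41, 26 and 53 counts against 0 in each DMSO library. Taking 3 counts per library as the floor that a 0 allows, its level was at least 19.9-fold higher. TRPM5, a cation channel of taste cells, had 28, 25 and 29 counts and was at least 13.6-fold higher. SMIM40, C19orf67 and ASPDH followed, at least 18.2-, 11.2- and 10.9-fold higher. In DMSO alone, 6 genes had at least 10 counts in each library. Of these ZNF732, a zinc finger gene, had 55, 27 and 41 counts and was at least 9.16-fold lower after THZ1. SLA, an adaptor of antigen receptor signalling, was at least 6.79-fold lower, OSGIN1, an oxidative-stress growth inhibitor, at least 5.86-fold and FGF4, a fibroblast growth factor, at least 4.62-fold. AP002748.4 had 241, 76 and 204 counts in DMSO and missed the threshold (edgeR adjusted p 0.0503). It shares exon bases with BBS1 and DPP3. These bounds cover counting error only.

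To describe the change by function, 61 lists of genes were read beside the whole. They hold 2340 different tested genes. With TMM scaling 18 of the 61 list medians were above 0, with library size alone 4 were, and with mitochondrial scaling none was. Of the rises named in the lists below, GRIN3B, SMAD7, CYR61, GUK1 and RAB26 kept a value above 0 with mitochondrial scaling and the others turned negative. GRIN3B was called higher with that scaling, at 0.89 (edgeR adjusted p 0.0022). SMAD7, CYR61, GUK1 and RAB26 were not.

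**Figure D2:**
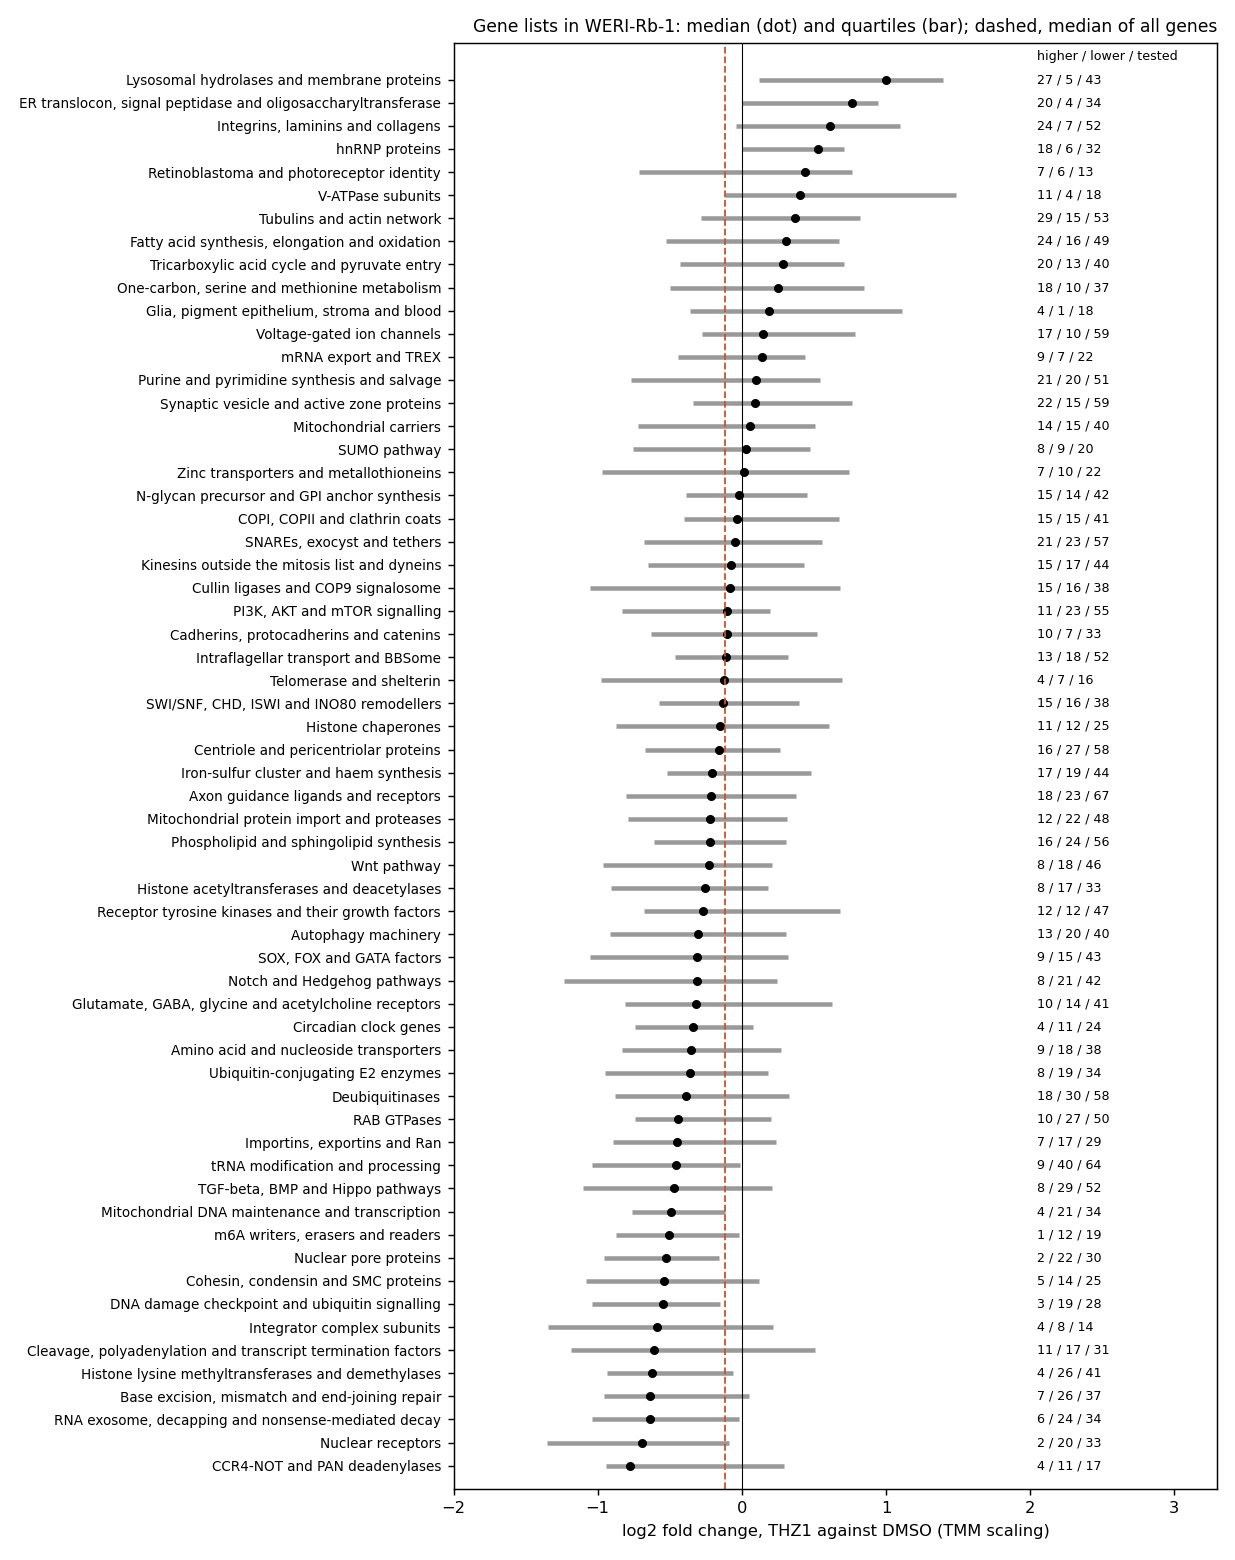
Median (dot) and quartiles (bar) of the log2 fold change of each list, with its genes higher, lower and tested at the right and the median of all genes as a dashed line at -0.11. Lysosomal proteins stand at the top and CCR4-NOT and PAN deadenylases at the bottom.

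Lysosomal proteins had the highest median of all the lists. Of 43 genes for hydrolases and membrane proteins of the lysosome, 27 rose and 5 fell, and 21 rose at least 2-fold, where 27.7% of all genes rose, 37.2% fell and 11.3% rose at least 2-fold. The median log2 fold change was 1.0 with TMM scaling, 0.56 with library size and -0.89 with mitochondrial scaling. HEXA, a subunit of the hexosaminidase that breaks down ganglioside GM2, was at 44.7, 45.2 and 43.8 CPM in DMSO and at 151, 148 and 138 CPM after THZ1, a log2 fold change of 1.71 ± 0.0748 (SE). PSAP, the precursor of the saposins that present sphingolipids to hydrolases, went from 402, 403 and 397 CPM to 1365, 1249 and 1310.0 CPM. CTSD, the aspartic protease cathepsin D, went from 61.7, 74.1 and 63.6 CPM to 200.2, 176 and 198 CPM. For each of these the lowest treated culture was above the highest control. HEXA shares exon bases with AC009690.1 on the same strand.

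Other lysosomal members rose as well. PPT1, which removes palmitate from proteins, rose by 1.53, and GALC, the galactocerebrosidase, by 1.51. The membrane proteins SCARB2, LAMP1 and LAMP2 rose by 1.44, 1.36 and 1.05. The falls included the cystine exporter CTNS at -1.46, the sphingomyelinase SMPD1 at -1.24, the galactosidase GLA at -1.0 and the membrane protein CLN3 at -0.74. NPC1, the cholesterol exporter of the lysosome, had a log2 fold change of 0.05 and did not pass the test, while its soluble partner NPC2 rose by 1.43.

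The V-ATPase, the proton pump that acidifies lysosomes, was split between its subunits. Of 18 genes 11 rose and 4 fell, with a median of 0.41 (-1.49 with mitochondrial scaling). ATP6V1G1, a small stalk subunit, was at 134, 139 and 138 CPM in DMSO and at 449, 491 and 505 CPM after THZ1. ATP6V0C, which forms the proton-carrying ring, rose by 1.69 and the accessory subunits ATP6AP1 and ATP6AP2 by 1.61 and 1.7. ATP6V0E1 went the other way, from 8.47, 10.6 and 9.48 CPM to 1.75, 1.795 and 1.86 CPM, while its paralogue ATP6V0E2 rose by 0.91.

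**Figure D3:**
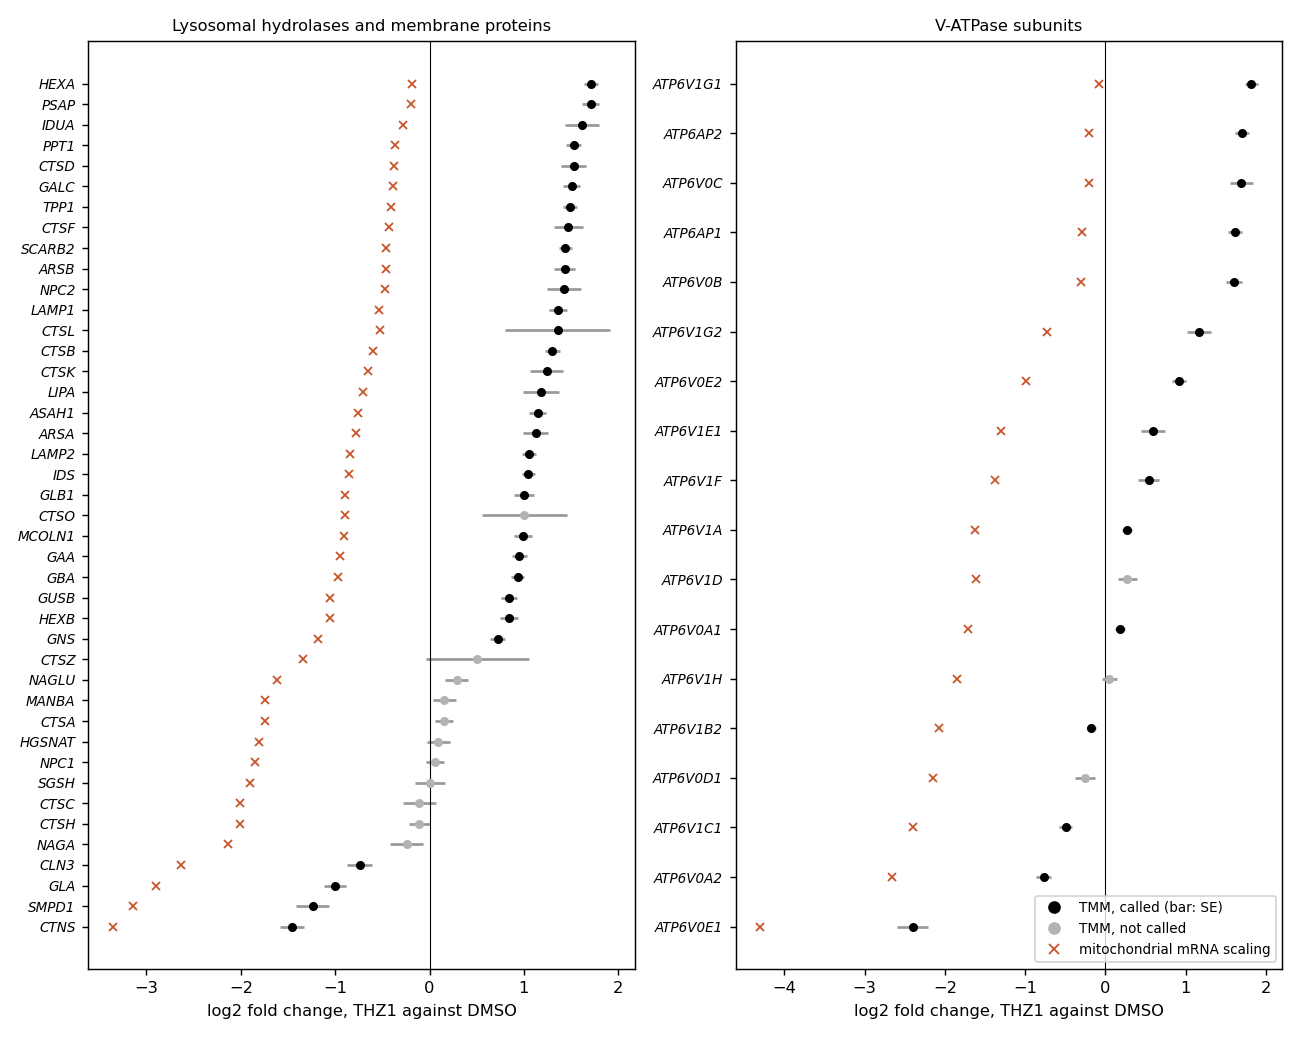
Log2 fold change of lysosomal genes and V-ATPase subunits, with TMM scaling as dots (black where called, grey where not, bars for the SE) and with mitochondrial scaling as crosses. HEXA tops the lysosomal genes at 1.71, ATP6V0E1 is the lowest pump subunit at -2.40, and every cross lies below 0.

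Promoters of several lysosomal genes hold the word CACGTG, the core of the E-box read by the TFEB family of lysosomal regulators. It was in 7 of the 26 lysosomal promoters in the RefSeq table (26.9%) and in 9.82% of all 11471, counted on both strands, which for this palindrome are the same. The 4 shown belong to genes that rose: CTSD and LAMP1 described above, MCOLN1, the calcium channel of the lysosome, at 0.99, and GAA, the acid glucosidase, at 0.95. Capitals mark CACGTG in the 100 bases before the start, with RefSeq coordinates chr11:1763928-1764027 (minus), chr13:113297139-113297238 (plus), chr17:80101481-80101580 (plus) and chr19:7522524-7522623 (plus) on GRCh38.p14.
CTSD: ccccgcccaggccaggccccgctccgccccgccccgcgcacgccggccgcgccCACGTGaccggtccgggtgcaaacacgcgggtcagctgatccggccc
LAMP1: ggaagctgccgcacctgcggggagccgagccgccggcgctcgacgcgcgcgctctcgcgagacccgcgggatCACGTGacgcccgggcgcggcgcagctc
GAA: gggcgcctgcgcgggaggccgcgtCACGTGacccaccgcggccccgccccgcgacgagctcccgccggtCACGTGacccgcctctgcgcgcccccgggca
MCOLN1: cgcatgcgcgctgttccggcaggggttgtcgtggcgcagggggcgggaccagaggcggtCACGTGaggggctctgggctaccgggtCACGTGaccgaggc
Of the 7 with the word 5 rose, these 4 and CTSF, a cysteine cathepsin, at 1.47, where 27 of all 43 lysosomal genes rose. CLN3 holds it and fell, and CTSA holds it with a log2 fold change of 0.15 and did not pass the test. Over all promoters, genes with CACGTG had a median of -0.21 and genes without it -0.14. TFEB itself fell by 1.65 on the log2 scale, and its relative TFE3, at 0.19, did not pass the test.

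Proteins are threaded into the endoplasmic reticulum by a translocon and then trimmed and glycosylated there, and these genes were the next highest list. Of 34 genes 20 rose and 4 fell, with a median of 0.77 (0.32 with library size and -1.13 with mitochondrial scaling). Within the signal recognition particle the small Alu-domain proteins SRP14 and SRP9 rose by 1.65 and 1.51, whereas SRP68, SRP19 and the GTPase SRP54 fell (-1.14, -0.87 and -0.33). SRP14 was at 149, 165 and 157 CPM in DMSO and at 495, 466 and 515 CPM after THZ1. The oligosaccharyltransferase subunits RPN2, OST4 and DDOST rose by 1.52, 1.47 and 1.27, and DAD1 of the same enzyme fell by 0.55.

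Vesicle coats and their guides gave another picture. Of 41 coat genes 15 rose and 15 fell, and of 50 RAB GTPases, the switches that direct vesicles, 10 rose and 27 fell (median -0.45, negative with all 3 scalings). ARCN1, the delta subunit of the COPI coat, went from 151, 153 and 151 CPM to 32.01, 35.4 and 33.1 CPM, while the COPI subunits COPE and COPZ1 rose by 1.03 and 1.08. RAB8A, which directs traffic to the cilium and cell surface, went from 43.6, 45.6 and 43.8 CPM to 6.93, 6.44 and 7.49 CPM. RAB8A shares exon bases with HSH2D on the same strand. RAB26 rose by 1.91, and kept a value of 0.01 with mitochondrial scaling, where it was not called. RAB3A, RAB3C and RAB3D, which are among the RABs that act in regulated secretion, fell (-1.27, -1.45 and -1.8).

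Matrix proteins and their receptors had a positive median, and cadherins did not. Of 52 tested integrins, laminins and collagens 24 rose and 7 fell, with a median of 0.61 (-1.28 with mitochondrial scaling). The falls were 4 when THZ1 replicate 1 or THZ1 replicate 3 was left out. COL11A2, a minor fibrillar collagen, was at 31.3, 36.5 and 34.6 CPM in DMSO and at 108, 112 and 101 CPM after THZ1, and AGRN, the proteoglycan agrin, rose by 1.45. ITGB1, the common beta chain of many integrins, rose by 1.17. Its partner ITGA5, a fibronectin receptor chain, fell by 2.06, and its log2 fold change in Y79 was -0.6, a tested difference of 1.46 (edgeR adjusted p 0.00437). Of 33 cadherins, protocadherins and catenins, the proteins of cell-cell contact, 10 rose and 7 fell, and their median of -0.11 was near the -0.11 of all genes.

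The cytoskeleton list held 53 tubulin and actin-network genes, of which 29 rose and 15 fell (median 0.37, -0.08 with library size and -1.53 with mitochondrial scaling). CFL1, the actin-severing cofilin, was at 317, 335 and 318 CPM in DMSO and at 1104, 957 and 1047 CPM after THZ1. TMSB10 and TMSB4X, small proteins that sequester actin monomers, rose by 1.64 and 1.17. The muscle cofilin CFL2 and the neuronal profilin PFN2 fell (-0.85 and -1.39), while PFN1, the paralogue of PFN2, rose by 0.88. TUBD1, the centriolar delta-tubulin, fell from 17.2, 18.8 and 15.96 CPM to 2.904, 4.099 and 3.45 CPM. Paralogues of 1 family thus stood on both sides.

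With TMM scaling, proteins that bind nascent mRNA rose more often than they fell. Of 32 hnRNP genes 18 rose and 6 fell, where 27.7% of all genes rose and 37.2% fell. The median was 0.53, 0.079 with library size and -1.37 with mitochondrial scaling. With library size 13 were higher and 13 lower. Beside HNRNPA1 and HNRNPA2B1, HNRNPC rose by 1.26, HNRNPA3 by 1.25 and HNRNPK by 1.13. HNRNPF, a splicing regulator that binds runs of G, fell from 418, 413 and 409.5 CPM to 203, 211 and 203 CPM, and the polypyrimidine-tract protein PTBP1 fell by 0.73. HNRNPA1 has many processed pseudogenes, so its counts depend on how reads with several matches were treated.

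The enzymes that shape and remove mRNA fell more often than they rose, as did all genes (27.7% higher and 37.2% lower). Of 31 genes for cleavage, polyadenylation and termination 11 rose (35.5%) and 17 fell (54.8%), both above those shares (median -0.61). The cleavage factor subunits were split: CPSF1, the scaffold, went from 157, 158 and 156 CPM to 379, 349 and 351 CPM, while the endonuclease CPSF3 fell (-1.32) and WDR33, which reads the polyadenylation signal, at -1.46. CSTF3 fell by 1.75 beside the CSTF1 described above, and CSTF2, at 0.02, did not pass the test. PCF11, the termination factor, fell by 1.22.

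In the Integrator complex, which cleaves RNA at stalled polymerases, 4 of 14 subunits rose (28.6%, near the 27.7% of all genes) and 8 fell (57.1%). INTS14, of its arm module, went from 24.6, 24.8 and 24.6 CPM to 4.16, 4.03 and 4.24 CPM, and the catalytic subunit INTS11 rose by 0.47. Of 34 genes of the RNA exosome, decapping and nonsense-mediated decay 6 rose and 24 fell (median -0.64). Among them DCP1B and DCP1A, activators of decapping, fell (-1.67 and -1.46), and the exosome ring subunit EXOSC3 at -1.65. CCR4-NOT and PAN deadenylases had the lowest median of all 61 lists, at -0.78, with 4 of 17 higher and 11 lower. The deadenylase CNOT6 went from 61.9, 53.6 and 53.7 CPM to 19.6, 20.97 and 24.1 CPM, and PABPC1, which coats the poly(A) tail, rose by 1.46. Of 19 genes for the m6A mark of mRNA only RBM15, a writer subunit, rose (1.29), and 12 fell, with ZC3H13 of the same writer at -1.6.

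In the tRNA list 40 of 64 modification and processing genes fell and 9 rose (median -0.46). RPP14, a protein of RNase P that trims the 5′ end of tRNA, went from 31.9, 30.9 and 31.1 CPM to 6.93, 7.22 and 6.45 CPM; it shares exon bases with HTD2 on the same strand. CTU1 and QTRT2, which modify the wobble base, fell (-2.59 and -1.97), and ELAC1 at -2.08. DUS1L, a dihydrouridine synthase, rose by 0.95.

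Of the 30 nuclear pore proteins 22 fell and 2 rose, with a median of -0.53, and 7 fell at least 2-fold. NUP37 of the outer Y complex went from 15.4, 15.9 and 14.4 CPM to 5.003, 4.84 and 4.52 CPM. NUP98 and RANBP2, of the inner gate and the cytoplasmic filaments, fell (-1.37 and -1.2). The exceptions were NUP35 and NUP43, which rose by 0.58 and 0.5, NUP35 not being called with library size alone. The word CCGGAAG, the core read by ETS factors, was in 13 of the 28 nuclear pore promoters found (46.4%) and in 17.7% of all promoters, on either strand. It was about as frequent in lists with no lean to falls, in 9 of 19 promoters of mRNA export genes (47.4%) and 16 of 36 of vesicle coat genes (44.4%). Over all genes it was in 21.9% of the promoters of genes that fell and in 17.1% of those that rose, and genes with it had a median of -0.28 against -0.12 without it. Of 29 importins, exportins and Ran genes, the carriers that use the pore, 17 fell and 7 rose (median -0.45). Importin KPNA2 fell from 399.7, 408 and 390.3 CPM to 156, 145 and 152 CPM and IPO5 rose by 0.88.

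Chromatin-modifying enzymes fell more often than they rose, as did all genes (27.7% higher and 37.2% lower). Of 41 histone lysine methyltransferases and demethylases 26 fell and 4 rose (median -0.63). SUV39H1, which lays down H3K9 trimethylation, went from 20.3, 20.8 and 21.5 CPM to 5.74, 6.44 and 5.21 CPM, and NSD1, an H3K36 methyltransferase, fell by 1.7. DOT1L, the H3K79 methyltransferase, rose by 0.77. Of 33 acetyltransferases and deacetylases 8 rose and 17 fell. Among them the coactivators EP300 and CREBBP fell (-1.65 and -0.98), while the deacetylases HDAC1, HDAC3 and HDAC6 rose by 1.15, 1.06 and 1.05. EP300 went from 204, 192 and 197 CPM to 63.2, 63.7 and 61.7 CPM.

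Among histone chaperones the members stood far apart, with 11 of 25 higher and 12 lower. ASF1B, a replication-linked H3-H4 chaperone, went from 31.96, 34.6 and 33.5 CPM to 6.19, 5.01 and 5.62 CPM, and HJURP, which loads the centromeric histone, fell by 2.42. The acidic chaperones ANP32E and NAP1L1 rose by 1.44 and 1.35. Of 38 remodeller genes 15 rose and 16 fell, with CHD3 of the NuRD complex at 1.41 and BAZ1A of an ISWI complex at -1.96. Of 25 cohesin, condensin and SMC genes 5 rose and 14 fell (median -0.54). The cohesin subunit SMC1A rose by 1.21 and its ring partner SMC3 fell by 1.09, and the unloader WAPL fell from 105, 99.4 and 106 CPM to 35.96, 35.1 and 36.7 CPM.

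DNA repair outside recombination fell in most members. Of 37 genes of base excision, mismatch and end-joining repair 26 fell and 7 rose (median -0.64). APEX2, an abasic-site endonuclease, went from 10.8, 10.5 and 9.55 CPM to 0.735, 0.542 and 0.656 CPM, a log2 fold change of -3.99 ± 0.234 (SE). Its exons share only 3 bases with ALAS2 on the opposite strand. The glycosylase NEIL3 and the main abasic endonuclease APEX1 fell (-1.95 and -1.3), and PARP1, which marks DNA breaks with poly(ADP-ribose), and the Ku subunit XRCC6 rose by 1.06 and 1.17.

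In the damage checkpoint list 19 of 28 genes fell and 3 rose (median -0.55). ETAA1, an activator of the ATR kinase, went from 35.2, 29.9 and 32.7 CPM to 5.42, 5.69 and 6.45 CPM. MDM2, a ubiquitin ligase, fell by 0.48, and its relative MDM4 rose by 0.44. WEE1, the kinase that holds cells before mitosis, fell by 1.79. TIMELESS, which protects replication forks, rose from 95.6, 91.8 and 92.7 CPM to 222, 213 and 219 CPM.

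Cullin ubiquitin ligases had members on both sides. Of 38 genes 15 rose and 16 fell. The members named next were picked as examples and do not stand for their role. SKP1, an adaptor, rose by 1.66, ELOB by 1.63, ELOC by 0.74, RBX1 by 0.55 and NEDD8 by 1.34, each negative with mitochondrial scaling. The scaffolds CUL1, CUL2 and CUL3 fell (-1.81, -2.12 and -1.4), and the substrate receptors SPOP, CCNF and KEAP1 at -1.75, -2.14 and -2.51. KEAP1, the receptor that keeps NRF2 low, was at 84.5, 88.5 and 86.7 CPM in DMSO and at 15.1, 12.97 and 17.7 CPM after THZ1. SKP1 was at 129.7, 131 and 127 CPM and at 385, 416 and 426 CPM. Deubiquitinases fell in 30 of 58 and rose in 18, with USP42 at -2.12 and USP5 at 1.15.

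In autophagy 13 of 40 genes rose and 20 fell. MAP1LC3B, the ubiquitin-like protein that coats autophagosomes, went from 98.6, 96.2 and 92.9 CPM to 309.9, 327 and 313 CPM, and its relative GABARAPL2 rose by 1.41. Members that fell included 3 that act when the membrane starts and extends: ATG101 at -2.04, WIPI1 at -1.64 and ATG9A at -1.43.

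Among metabolic lists the cycle enzymes were divided. Of 40 genes of the tricarboxylic acid cycle and pyruvate entry 20 rose and 13 fell (median 0.29, -0.16 with library size and -1.61 with mitochondrial scaling). OGDH, of the oxoglutarate dehydrogenase step, went from 65.6, 70.97 and 64.9 CPM to 14.4, 13.7 and 16.8 CPM, and its neuronal paralogue OGDHL rose by 0.71. PDHA1 and PDHB, the chains of 1 pyruvate dehydrogenase enzyme, changed by 1.21 and -0.95. In fat metabolism 24 of 49 genes rose and 16 fell, where 27.7% of all genes rose and 37.2% fell. With library size 13 were higher and 22 lower. The median was 0.30 with TMM scaling, -0.145 with library size and -1.595 with mitochondrial scaling. ACADVL, which starts the oxidation of long chains, was at 1.62 and CPT2, which brings them into the matrix, at -2.02.

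In nucleotide synthesis GUK1, the guanylate kinase, went from 62.8, 72.6 and 70.1 CPM to 299, 268 and 292 CPM. It kept a positive value of 0.16 with mitochondrial scaling, where it was not called. The pyrimidine enzymes DHODH and UMPS fell (-1.56 and -1.67). The ferritin chains FTL and FTH1, the iron store, rose by 1.78 and 1.65, whereas the haem oxygenases HMOX1 and HMOX2, which release iron, fell (-1.97 and -2.34). FTL was at 120.4, 126 and 114 CPM in DMSO and at 431, 383 and 425 CPM after THZ1. Ferritin also has processed pseudogenes, which makes its counts uncertain. Factors that keep and transcribe mitochondrial DNA fell in 21 of 34 cases and rose in 4, where DESeq2 called 7 higher, with the helicase TWNK at -1.72 and the terminator MTERF3 at -1.6.

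Developmental signalling lists had medians below the -0.11 of all genes, by differing amounts. In the TGF-beta, BMP and Hippo list 29 of 52 genes fell and 8 rose (median -0.47). AMOTL2, a junction protein that binds YAP, went from 131, 128 and 122 CPM to 19.4, 20.2 and 20.3 CPM. SMAD7, an inhibitor of TGF-beta signalling, and CYR61, a target of YAP, rose by 2.06 and 2.1. In the Wnt list, with a median of -0.23 and a share of falls near the 37.2% of all genes, 18 of 46 fell and 8 rose. ZNRF3, a ligase that removes Wnt receptors, fell by 2.55 while its relative RNF43 rose by 1.27. RNF43 was at a low level, a mean of 1.45 CPM in DMSO and 3.51 CPM after THZ1. It shares exon bases with SUPT4H1 on the same strand. In the Notch and Hedgehog list 21 of 42 fell and 8 rose. POFUT1, which fucosylates Notch, went from 44.01, 39.2 and 41.2 CPM to 9.48, 7.995 and 8.97 CPM, and NOTCH1 and the Hedgehog receptor PTCH1 fell (-1.31 and -1.79).

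Of 55 genes of PI3K and mTOR signalling 23 fell and 11 rose, and the median of -0.1 was near that of all genes (-0.11). The catalytic subunit PIK3CD and the regulatory subunit PIK3R1 fell (-2.02 and -1.94). In Y79 the log2 fold change of PIK3CD was -1.01, a tested difference of 1.01 (edgeR adjusted p 0.00369). Of 33 tested nuclear receptors 20 fell and 2 rose (median -0.7). PPARA, a fatty acid sensor, went from 26.9, 22.7 and 26.01 CPM to 6.72, 5.42 and 4.52 CPM, and RXRA, the common partner of this class, fell by 1.38. GATA4, a factor of heart and endoderm, fell from 20.3, 17.6 and 18.4 CPM to 2.69, 2.27 and 2.62 CPM, and SOX4, a factor of neural and progenitor cells, rose by 1.38.

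Genes of neurons showed no common direction. Of 59 synaptic genes 22 rose and 15 fell (median 0.09, -0.36 with library size and -1.82 with mitochondrial scaling). The vesicle protein SYP and the postsynaptic scaffold SHANK1 rose by 1.23 and 1.37, and SYN1 and NRXN2 fell (-1.19 and -2.07). Of 41 tested receptors for glutamate, GABA, glycine and acetylcholine 10 rose and 14 fell, where 27.7% of all genes rose and 37.2% fell. CHRNB2, the beta-2 chain of the neuronal nicotinic receptor, went from 157, 157 and 153 CPM to 32.3, 24.9 and 25.7 CPM, and CHRNB4 fell by 2.41. GRIN3B, a glutamate receptor subunit, rose by 2.79 at a low level, a mean of 0.88 CPM in DMSO and 6.1 CPM after THZ1. It shares exon bases with TMEM259 on the opposite strand. Of 59 voltage-gated channel genes 17 rose and 10 fell (median 0.14, -0.30 with library size and -1.75 with mitochondrial scaling). CACNA1F and CACNA2D4, channel subunits of photoreceptor synapses, rose by 1.18 and 1.04. Among identity markers of this tumour, THRB, the thyroid hormone receptor that directs cone fate, went from 608, 573 and 558 CPM to 140.1, 142 and 141 CPM, while GNGT2, a cone transducin chain, rose by 1.16.

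Gene structure went along with the change across all genes tested. Genes with an annotated span under 5 kb (GENCODE v29) rose in 41.04% of 1362 cases and fell in 20.5%, with a median log2 fold change of 0.40. The figures were 32.7% and 34.7% for 4090 genes of 5 to 20 kb, 26.1% and 41.2% for 4644 genes of 20 to 60 kb, and 21.3% and 42.4% for 3576 genes of 60 to 200 kb. Genes over 200 kb rose in 20.7% and fell in 33.5% of 1193 cases. All classes have negative medians with mitochondrial scaling. Leaving out mitochondrial, ribosomal protein and histone genes kept the share that rose in the shortest class at 38.2%, and leaving out genes that share exon bases with another kept it at 38.2% as well.

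Within most span classes the genes with many exons had the higher medians. Among genes of 5 to 20 kb the median was -0.25 for the 1253 genes with 2 to 4 exons and 0.65 for the 161 genes with 20 or more. Among genes of 20 to 60 kb the same classes had medians of -0.29 and 0.07. Over 200 kb this was not so, with 0.08 for 58 genes of 2 to 4 exons and -0.04 for 492 of 20 or more. Over all spans the single-exon class had the highest median, 0.22, and genes of 20 or more exons had -0.02. Without mitochondrial, ribosomal protein and histone genes the single-exon median was 0.098, and that of 20 or more exons was -0.022. The classes of mean level differed too: with genes split into 5 equal classes by mean level, 51.8% of the highest class rose, and 21.2% of the middle class rose and 51.7% fell. These classes overlap with each other, and their separate parts were not tested.

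**Figure D4:**
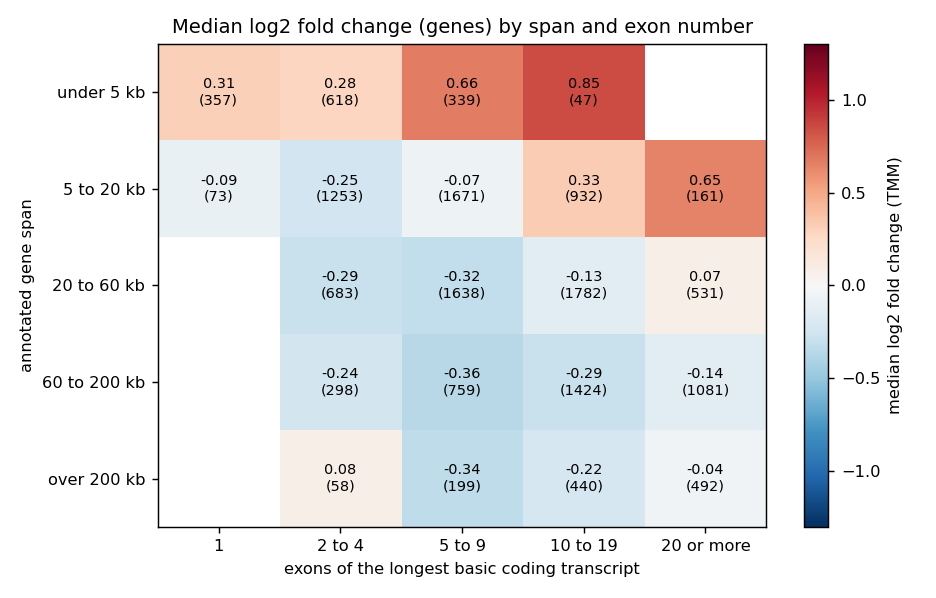
Median log2 fold change (TMM scaling) by annotated span and exon number, with the number of genes in parentheses, red for higher after THZ1 and classes under 20 genes left blank. In the 5 to 20 kb row the median goes from -0.25 at 2 to 4 exons to 0.65 at 20 or more.

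The share of a library's counts that comes from each span class needs no scaling between libraries. Genes under 5 kb gave 9.37%, 9.87% and 9.44% of all counts in the DMSO libraries and 18.97%, 17.6% and 19.3% in the THZ1 libraries. That is 9.56% ± 0.269 against 18.6% ± 0.926 (SD, n = 3 each; exact permutation test, two-sided, p = 0.1, the smallest this design allows). Without the mitochondrial genome, which is in this class, the shares were 6.09% ± 0.265 and 9.46% ± 0.306 (SD, n = 3). Genes of 60 to 200 kb gave 25.01%, 24.2% and 24.7% of all counts in DMSO and 17.95%, 18.6% and 17.8% after THZ1. No class had overlapping groups, and the share of 5 to 20 kb genes was higher and those of all longer classes lower after THZ1.

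**Figure D5:**
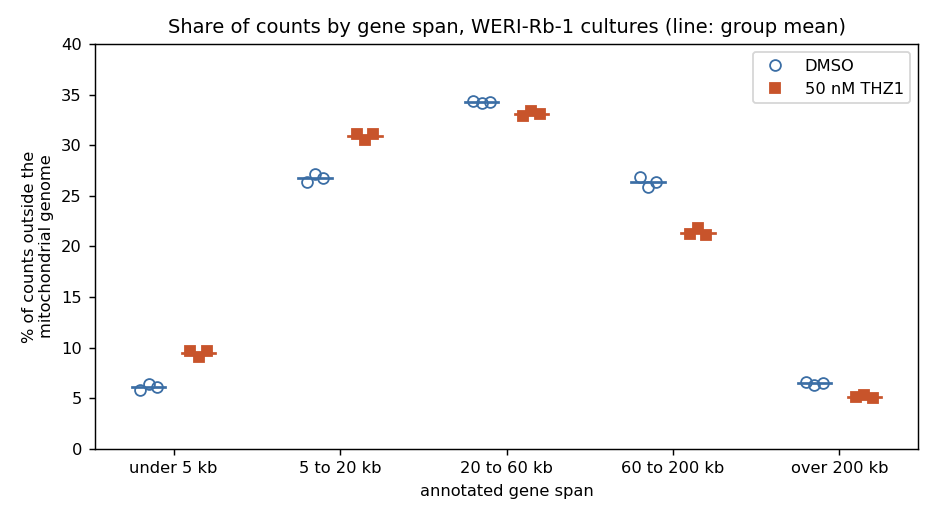
Percent of counts outside the mitochondrial genome by gene span, with 1 open circle for each DMSO culture, 1 filled square for each THZ1 culture and a line at each group mean. The shares of the shorter classes are higher after THZ1, as from 6.09% to 9.46% under 5 kb, and those of the longer classes lower.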

How the data were processed

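The authors deposited 1 table of whole-number counts per gene and library, and no normalization by the authors shows in the values. Per the labels' protocols, the NEBNext Ultra RNA kit was used for the libraries. Per the submitters' processing notes Cufflinks and the build GRCh38 were used. The sources used here name no aligner and do not say how read pairs and multiply matching reads were handled. Of 27505 features, 19974 are Ensembl genes and 7531 are loci without annotation. Genes were placed with GENCODE release 29 on GRCh38, and promoters came from a RefSeq table of GRCh38.p14. In 27 rows symbols stored as dates were restored, and 15 symbols belong to several identifiers.

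The deposited counts of all 12 libraries entered edgeR 4.0.16 in R 4.3.3 (filterByExpr, TMM, glmQLFit with robust spread, glmQLFTest, 1 mean per group, 8 residual degrees of freedom). P-values were adjusted by Benjamini-Hochberg over all 18844 tested features and called under 0.05. DESeq2 1.42.0, other scalings, other filters, a replicate block and leaving out each library were alternatives. The fit was tested on simulated data in which a small set of genes changed, equally often up and down. That does not test TMM scaling where most genes are called, as here. Replicates differed by more than sampling noise, so none was merged.

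Members and lists were chosen with earlier results of these data known. The named genes were the 12 largest rises and 12 largest falls among genes whose groups did not overlap and whose mean log2 CPM was 3 or more, the 6 largest gains and losses in CPM, the 5 leading genes counted in 1 group only and each way, and the top rise and fall of each list among members with a mean log2 CPM of at least 1. Histone, mitochondrial and ribosomal protein genes, and a list of genes set aside because their values were already known, were left out of all but the last group. Further list members, and the promoters printed, were picked as examples after their values were seen. A few genes, among them 2 that the rule for lists named, are not reported here. Intervals and floors cover counting error only.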

Additional observations from a re-analysis of the deposited data

Results flagged for a closer look

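The change of 8 ranked genes differed between the lines, by edgeR's test of the change in Y79 minus the change in WERI-Rb-1, adjusted over all features, and 22.0% of all tested genes passed the same test. On the log2 scale the difference was 0.54 for ID2, which rose further in Y79. It was -0.67 for IER5L, -0.67 for GADD45B, -0.71 for SGK1 and -1.57 for RASD1, which rose less there. Among the falls it was -0.5 for NCOA5 and -1.12 for PRPF4, which fell further in Y79, and 0.44 for ZNF473, which fell less. The adjusted p was closest to the threshold for ZNF473 (edgeR, 0.0488) and smallest for PRPF4 (edgeR, 0.000114).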

How the results depend on the processing

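The number of genes higher after THZ1 was 4115, and it was 2221 with library size alone and 111 with mitochondrial scaling. The number lower was 5523, and it was 7961 with library size and 13328 with mitochondrial scaling. The other settings stayed within 1.5 times: 4537 and 5042 with the size factors of DESeq2, 3902 and 5510 without the filter, 4671 and 5161 with DESeq2, and 4649 and 6043 with the WERI-Rb-1 libraries only. With each library left out in turn the counts were 3651 to 3781 higher and 5134 to 5366 lower. The count of ranked genes whose change differed between the lines was 8, and it was 5 with mitochondrial scaling and 5 to 6 with a library left out. The cause of these shifts was not tested.

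With a replicate block 3905 genes were higher and 5316 lower, and 5 ranked genes differed between the lines. Same-numbered WERI-Rb-1 libraries deviated from their group means with correlations of -0.0438, 0.00459 and -0.0206, so no shared deviation was seen. Such small correlations cannot tell whether the cultures were set up in numbered pairs. The block changed the call of 1 named gene, AP002748.4, and of no other.

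Outside the mitochondrial genome the difference in the share of counts, THZ1 minus DMSO in percentage points, was 3.366 for genes under 5 kb, 4.16 for 5 to 20 kb, -1.152 for 20 to 60 kb, -5.029 for 60 to 200 kb and -1.345 for over 200 kb. With all counts it was 9.071, 1.271, -3.873, -6.497 and -1.69 in the same order. All directions were the same.

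With mitochondrial scaling 58 of the 164 named genes changed from a positive to a negative log2 fold change. Their values were HSP90AA1 -0.66, STMN1 -0.24, PKM -0.81, HSP90AB1 -0.83, HNRNPA1 -0.40, HNRNPA2B1 -0.42, NUP35 -1.33, IPO5 -1.02, SMC1A -0.69, CHD3 -0.49, HDAC10 -0.47 and DOT1L -1.13. Next came ANP32E -0.46, TIMELESS -0.68, TERF2IP -0.66, CPSF1 -0.70, INTS1 -0.89, NXF1 -0.78, UPF3A -0.94, PABPC1 -0.44, RBM15 -0.61, DUS1L -0.95 and UBE2E3 -0.58. They were followed by SKP1 -0.23, USP5 -0.75, SUMO3 -0.41, MAP1LC3B -0.17, HEXA -0.19, ATP6V1G1 -0.083, SRP14 -0.25, PIGT -0.31, ARF5 -0.28, VAMP7 -0.48, KIFC2 -0.10 and CFL1 -0.22. Then came CETN2 -0.24, BBS1 -0.64, SHANK1 -0.53, KCND1 -0.32, SEMA3B -0.72, PCDH10 -0.41, COL11A2 -0.25, RNF43 -0.63, DLK1 -0.24, GGH -0.21 and ME3 -0.62. The last were ACADVL -0.28, CHKB -0.52, TOMM7 -0.49, HSD17B10 -1.04, SLC25A6 -0.48, FTL -0.12, SLC38A5 -0.96, SLC39A8 -0.65, NR2F1 -1.44, SOX4 -0.52, GNGT2 -0.74 and HBA1 -0.53. No other setting turned a named gene. Of 122 counts of list members, 68 moved by over 1.5 times with library size and 118 with mitochondrial scaling, and at most 2 did with any other setting.

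A count of 0 leaves room for 3 counts in a library, genes near the filter carry large errors, and 7391 of the tested genes share exon bases with another gene in a library kit without strand. No spike-in value was used here, so the absolute size of the change is not measured.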

Other observations

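Chromosome 19 held genes of both kinds. Its 242 tested genes with a ZNF symbol, which encode zinc finger proteins and stand in clusters there, rose in 7.03% and fell in 59.1% of cases. The other 925 tested genes of the chromosome rose in 40% and fell in 26.6%. In the whole chromosome the shares were 33.2% and 33.3%. The X chromosome had the highest share of genes that rose outside the mitochondrial genome, 34.0% of 488, and 26.2% of its genes fell. All 13 mitochondrial mRNAs rose with TMM scaling.

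Cilium genes, which photoreceptors use to build their outer segment, had members at both ends. Of 52 genes of intraflagellar transport and the BBSome 13 rose and 18 fell. These shares were near those of all genes (27.7% higher and 37.2% lower), and the median of -0.109 was near their -0.114. BBS1, a coat subunit of the BBSome, went from 40.3, 44.2 and 41.4 CPM in DMSO to 103, 94.6 and 103 CPM after THZ1. The chaperonin-like BBS10 and BBS12, which assemble that coat, fell (-1.82 and -1.95 on the log2 scale), as did their partner MKKS at -1.79. BBS1 shares exon bases with ZDHHC24 on the opposite strand and with AP002748.4 on the same strand. The latter had counts in DMSO only, so the size of the BBS1 rise is uncertain. Of 58 centriolar genes 16 rose and 27 fell, with CETN2, a small calcium-binding protein of the centriole, at 1.66 (-0.24 with mitochondrial scaling) and HAUS8, of the augmin complex, at -2.16. Of 24 clock genes 4 rose and 11 fell, and ARNTL, which pairs with CLOCK to drive the cycle, went from 20.95, 18.1 and 19.1 CPM to 5.25, 5.18 and 6.04 CPM.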
